A study of Mus musculus with 12 samples.

Results

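Of 19057 genes that the platform annotation pairs with a probe, 76 had a symbol that starts with Mrpl or Mrps followed by a number, and these genes of mitochondrial ribosomal proteins are described here. The 48 genes named Mrpl were counted as the large subunit and the 28 named Mrps as the small subunit. This split rests on the symbols alone, and the place of each protein in the ribosome was not checked. Together the genes were represented by 132 probes. Erythroblasts had been sorted from mouse bone marrow as Ter119-positive, CD71-high cells, CD71 being the transferrin receptor. The mice were knock-in animals, whose cyclin E carries T74A and T393A, and wild type littermates, all of strain background 129, and the labels name no cell type to which the alleles are restricted. Each genotype had 6 of the 12 bead arrays. Arrays with adjacent numbers (1 and 2, 3 and 4, and so on) were taken as duplicates and averaged, which left 3 knock-in and 3 wild type samples. Values by sample are log2 intensities and follow the order of arrays 3 and 4, 5 and 6, and 11 and 12 for knock-in samples, and of arrays 1 and 2, 7 and 8, and 9 and 10 for wild type samples. Nothing in the labels says that each sample is a different animal, and the spread behind every p-value is that of these samples and may be technical.

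The mitochondrial ribosome translates the messages encoded by mitochondrial DNA, which are all for subunits of the respiratory chain complexes and the ATP synthase. Its proteins are encoded in the nucleus, made in the cytosol and imported, and many have no counterpart in bacteria. The small subunit binds the message and holds the decoding centre, and the large subunit holds the peptidyl transferase centre and the exit tunnel. Erythroblasts need mitochondria for the first and last steps of heme synthesis and remove them during maturation to the red cell.

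Promoters are shown first for the 4 members with the smallest p in the comparison of genotypes (Mrps9, Mrps23, Mrps21 and Mrpl28) and for the 2 that were higher in the knock-in sample of each of 3 blocks of arrays (Mrps18c and Mrps7). Each stretch runs from 170 bases before to 30 bases after the start that RefSeq annotates on GRCm38.p6, on the strand of the gene. Capitals mark matches, on either strand, to the letters TGCGCA (part of the site of NRF1, a regulator of nuclear genes for mitochondria), CCGGAAG (bound by ETS factors such as GABPA), CACGTG (the E-box of Myc and other factors) and AAGATGG (a core of the YY1 site). None of these strings contains another.
Mrps9 (chr1:42851063-42851262, plus strand): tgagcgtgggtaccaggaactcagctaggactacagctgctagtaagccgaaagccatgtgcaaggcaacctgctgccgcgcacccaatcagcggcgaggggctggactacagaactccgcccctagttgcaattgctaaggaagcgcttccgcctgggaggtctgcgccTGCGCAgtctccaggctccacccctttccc
Mrps23 (chr11:88204218-88204417, plus strand): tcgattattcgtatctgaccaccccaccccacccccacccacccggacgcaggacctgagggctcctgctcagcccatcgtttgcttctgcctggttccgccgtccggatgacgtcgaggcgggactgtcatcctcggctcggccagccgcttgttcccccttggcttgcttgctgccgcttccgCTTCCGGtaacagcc
Mrps21 (chr3:95871485-95871684, minus strand): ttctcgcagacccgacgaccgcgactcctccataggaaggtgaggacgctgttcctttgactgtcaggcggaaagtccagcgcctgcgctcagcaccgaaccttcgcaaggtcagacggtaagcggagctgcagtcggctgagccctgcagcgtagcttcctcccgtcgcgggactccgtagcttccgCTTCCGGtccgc
Mrpl28 (chr17:26123333-26123532, plus strand): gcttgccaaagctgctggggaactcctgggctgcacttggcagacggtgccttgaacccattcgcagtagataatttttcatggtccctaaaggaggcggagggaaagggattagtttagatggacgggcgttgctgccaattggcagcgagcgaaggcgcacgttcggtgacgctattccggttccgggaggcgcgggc
Mrps18c (chr5:100798589-100798788, plus strand): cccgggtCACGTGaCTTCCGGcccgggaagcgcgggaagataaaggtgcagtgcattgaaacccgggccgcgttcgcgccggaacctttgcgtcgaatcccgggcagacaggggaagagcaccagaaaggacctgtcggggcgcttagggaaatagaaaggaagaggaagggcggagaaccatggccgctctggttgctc
Mrps7 (chr11:115603970-115604169, plus strand): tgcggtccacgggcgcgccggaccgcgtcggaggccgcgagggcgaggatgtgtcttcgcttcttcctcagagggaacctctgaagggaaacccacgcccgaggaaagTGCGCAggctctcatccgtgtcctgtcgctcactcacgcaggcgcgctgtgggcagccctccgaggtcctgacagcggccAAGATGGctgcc
A TGCGCA match lay in Mrps9 and Mrps7, a CCGGAAG match in Mrps23, Mrps21 and Mrps18c, a CACGTG match in Mrps18c and an AAGATGG match in Mrps7, while the stretch of Mrpl28 held no match to these letters. Over the full windows of 300 bases, RefSeq promoters were found for 64 of the 72 members tested, with 70 start sites. Of these 70 windows 26 (37.1%) held CCGGAAG, against 8.86% of all 32851 windows in the table. TGCGCA was present in 20 (28.6%, against 7.76% of all windows), AAGATGG in 12 (17.1%, against 6.34%) and CACGTG in 7 (10%, against 7.15%). The large subunit had CCGGAAG in 15 of 45 windows and the small subunit in 11 of 25. Windows count start sites and not genes, so a gene with several start sites counts more than once, as Mrpl2 does for CACGTG. The windows were not matched for base composition, and a match is a description of the letters and not a binding site.

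Not every member could be measured. A background limit of 6.6 to 7.7 intensity units was set on each array from the negative values, and a gene was tested if a probe lay above it on at least 6 of the 12 arrays. This left 72 members, 45 of the large and 27 of the small subunit, among 9388 genes tested. Mrpl19, Mrpl32 and Mrpl45 were above the limit on 0 of 12 arrays with each of their probes, and Mrps14 was above it on 2 of 6 knock-in and 3 of 6 wild type arrays. Of the 72 members, 69 were above the limit on all 12 arrays. The exceptions were Mrpl35 (4 of 6 knock-in and 5 of 6 wild type arrays), Mrpl39 (5 of 6 in each genotype) and Mrps27 (3 of 6 knock-in and 5 of 6 wild type arrays). The number of arrays limits the precision.

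Some facts of the whole series bear on all values below. Each array had between 15988 and 18227 of 45281 probes above the limit. The knock-in arrays were the brighter ones in each block of 4 adjacent arrays, with mean intensities of 178 to 247 on the knock-in arrays and 134 to 199 on the wild type arrays. They were 185 and 191 on knock-in and 170 and 172 on wild type arrays in the first block, 230.0 and 247 on knock-in and 194 and 199 on wild type arrays in the second, and 178 and 184 on knock-in and 134 and 144 on wild type arrays in the third. Erythroid markers were detected for 8 of 9 genes, Epb42 not among them, with a summed intensity of 103315 to 110233 in knock-in and 108370 to 115297 in wild type samples, although 6 of the 8 had a higher mean in knock-in samples (median difference 0.29 on the log2 scale). B lineage markers (10 of 14 above the limit, Dntt, Pax5, Rag2 and Vpreb2 not) summed to 1620 to 1976 in knock-in samples, against 3362 to 6039 in wild type samples. Markers of mast cells, basophils and eosinophils (8 of 8) summed to 16930 to 23655 in knock-in and 24666 to 34066 in wild type samples, and neutrophil markers (11 of 11) to 147193 to 211110 in knock-in and 160254 to 215993 in wild type samples. Macrophage markers (9 of 9 above the limit) summed to 12837 to 16522 in knock-in and 13201 to 21465 in wild type samples. All 9 had a lower mean in knock-in samples, 8 of them in each block. After quantile normalization all 9 were also higher on arrays 9 to 12 than on arrays 5 to 8. So were 58 of 72 ribosomal protein genes, 5 of 8 erythroid and 5 of 6 megakaryocyte markers, and 48.6% of all genes. In the other lists it was 2 of 8 mast cell, basophil and eosinophil, 1 of 10 B lineage, 0 of 11 neutrophil and 0 of 6 T and NK cell markers. T and NK cell markers (6 of 6, all with lower means in knock-in samples) summed to 1189 to 2006 in knock-in and 1179 to 2307 in wild type samples, and megakaryocyte markers (6 of 6, 3 of them lower) to 459 to 613 in knock-in and 533 to 821 in wild type samples. The part of these other cells in the values of the ribosomal protein genes was not tested, and in sorted cells fewer cells of a type and less RNA per cell cannot be told apart. Ccne1, the gene of cyclin E, was 8.70 in knock-in and 8.91 in wild type samples (log2, limma adjusted p = 0.952), which does not check the labels, since where its probe lies was not known here.

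The comparison of genotypes asked which transcripts differ when cyclin E escapes the ubiquitin ligase Fbw7. No mitochondrial ribosomal protein gene rose or fell by the test. By limma, with Benjamini-Hochberg adjustment over all 9388 genes, 0 of 72 members passed in either direction, where 0.0852% of all genes did. Before adjustment limma gave a p under 0.05 to 3 members that were lower (4.17%), where 3.09% of all genes were, and to 0 that were higher, where 5.56% of all genes were. The lowest adjusted p of a member was 0.431. When the fit also held the block of 4 arrays, again 0 members passed, where 0.937% of all genes did, and the lowest adjusted p of a member was 0.132. The 95% interval of every one of the 72 members lay within a 2-fold change. The widest bounds were 1.98-fold lower and 1.48-fold higher in knock-in samples.

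Small differences mostly had the same sign after quantile normalization. Of the 72 members 61 had a lower mean in knock-in samples (84.7%, where 58.4% of all genes had) and 11 a higher one (where 41.6% had), and the median difference was -0.14 on the log2 scale, against -0.03 for all genes. The sign depended on the scaling of the arrays: with each array scaled to its 75th percentile instead, 29 of 72 members (40.3%) and 42.8% of all genes were lower, and the medians were 0.03 for the members and 0.03 for all genes. With each array scaled to the median of probes above the limit, a setting chosen after the data were seen, 57 of 72 members were lower and the median was -0.09, against -0.05 for all genes. The cyclic loess median was -0.10 for the members and -0.01 for all genes. The median was less negative without knock-in arrays 5 and 6 (-0.06, against -0.04 for all genes) and without wild type arrays 9 and 10 (-0.07, against -0.03 for all genes), and more negative without knock-in arrays 11 and 12 (-0.21, against -0.02 for all genes). The plot of medians by setting shows these values side by side.

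**Figure D1:**
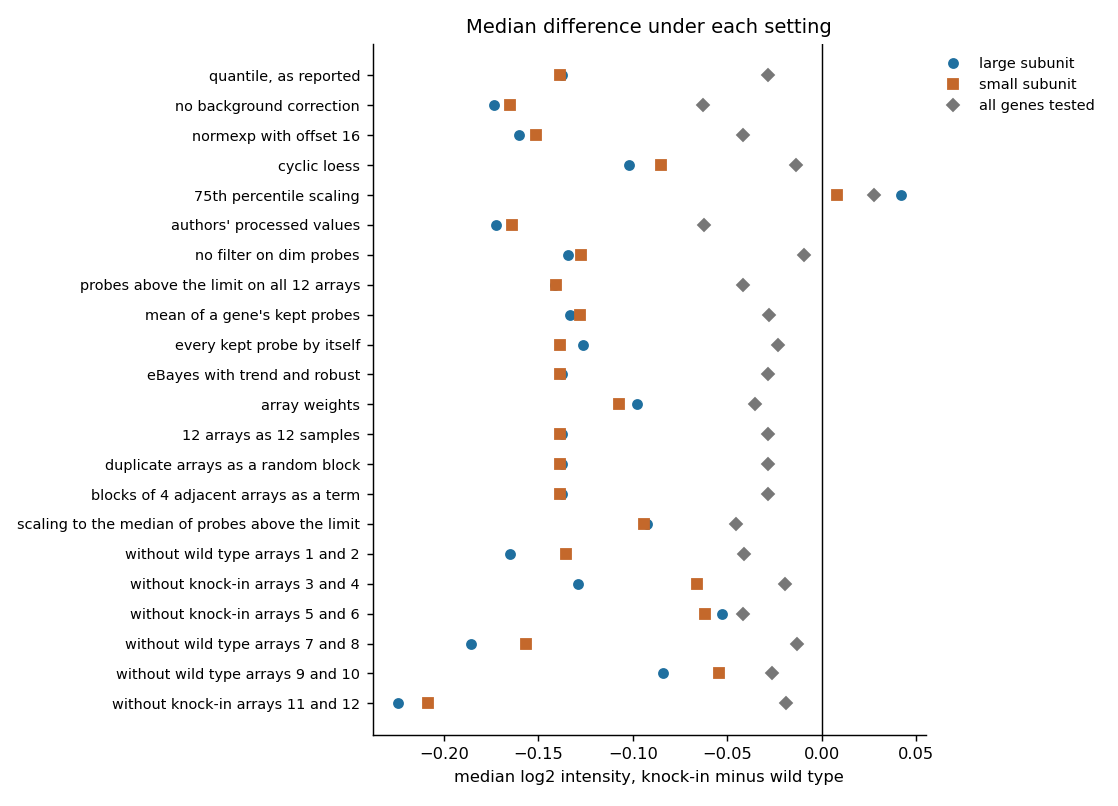
Median log2 difference, knock-in minus wild type (horizontal axis), of the large subunit (circles), the small subunit (squares) and all genes tested (diamonds) under each setting (rows). Both subunit medians lie left of 0 and of all genes in every row but that of 75th percentile scaling, where all medians lie right of 0, at 0.04 for the large subunit, 0.01 for the small subunit and 0.03 for all genes.

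The large and small subunits, as split by symbol, differed from each other by less than the spread between samples. The large subunit had 38 of 45 members lower and 7 higher, with a median of -0.14 (0.04 with 75th percentile scaling) and differences between -0.45 and 0.10. The small subunit had 23 of 27 lower and 4 higher, with a median of -0.14 (0.01 with 75th percentile scaling) and differences between -0.34 and 0.18. With each member centred on its mean over the 6 samples, the large subunit averaged -0.06 ± 0.15 in knock-in and 0.06 ± 0.12 in wild type samples (log2, SD, n = 3 each). The small subunit averaged -0.05 ± 0.13 in knock-in and 0.05 ± 0.14 in wild type samples (SD, n = 3 each). By sample, the 72 members together averaged -0.07, -0.20 and 0.08 in the knock-in samples of arrays 3 and 4, 5 and 6, and 11 and 12, against 0.00, -0.02 and 0.21 in the wild type samples of arrays 1 and 2, 7 and 8, and 9 and 10, so the genotypes overlapped. The difference between the genotypes, -0.13 for the large and -0.11 for the small subunit, was in both cases no larger than the pooled SD of the samples, 0.13 and 0.13, which includes the spread between blocks of arrays. Within the blocks the members together differed by -0.07, -0.17 and -0.13 (SD of these differences 0.05), all of one sign after quantile normalization. The large subunit minus the small subunit was -0.01 ± 0.03 in knock-in and 0.01 ± 0.03 in wild type samples, a difference of -0.02 with a pooled SD of 0.03. An unadjusted limma p under 0.05 was given to 3 members, all of them lower. They were 3 of 27 (11.1%) in the small and 0 of 45 in the large subunit, where 3.09% of all genes were. With adjustment 0 members passed, so this split is not a result about the subunits.

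**Figure D2:**
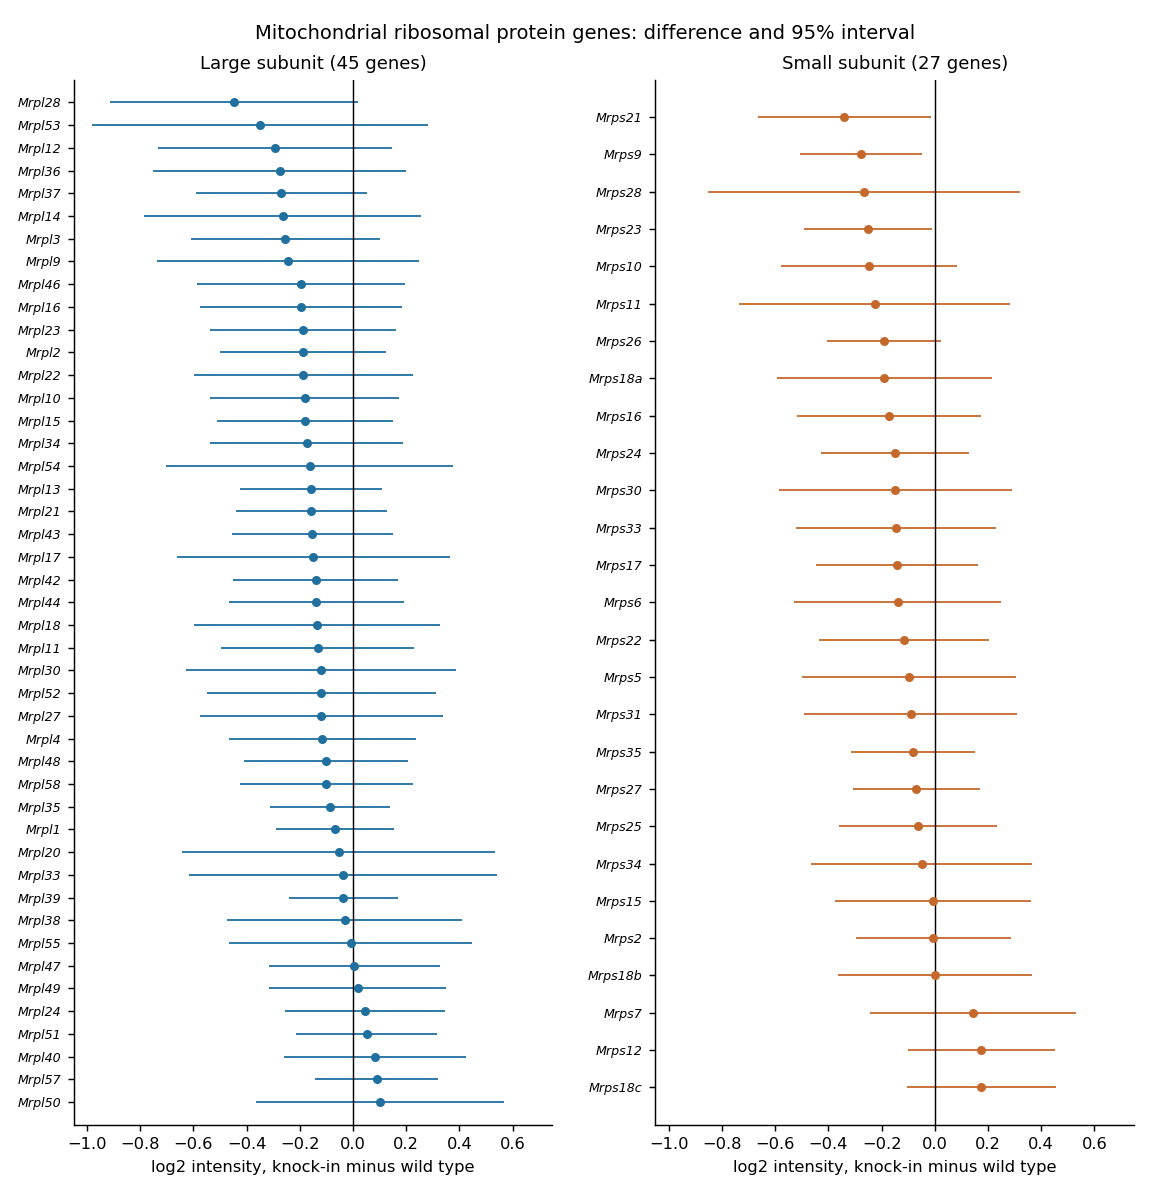
Log2 difference, knock-in minus wild type (horizontal axis), with its 95% interval from limma for each of the 45 large subunit genes (left) and 27 small subunit genes (right), n = 3 samples per genotype, after quantile normalization. Most points lie left of 0 in both panels, and only the intervals of Mrps9, Mrps21 and Mrps23 leave out 0 before adjustment. With 75th percentile scaling 29 of 72 points would lie left of 0.

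In the small subunit, proteins at the decoding site resemble those of bacteria. Mrps9, the counterpart of the bacterial small subunit protein of the same number, was 8.12, 7.95 and 8.16 in the knock-in samples, against 8.39, 8.32 and 8.35 in the wild type samples (log2). All 3 knock-in samples lay below all 3 wild type samples, which were close together. The difference was -0.28 ± 0.10 (SE), a fold of 0.825 (95% interval of the log2 difference -0.51 to -0.05, limma adjusted p = 0.431). Mrps21, again named after its bacterial counterpart, was 9.06, 8.97 and 9.34 in the knock-in samples, against 9.45, 9.33 and 9.61 in the wild type samples. The knock-in sample of arrays 11 and 12 reached the lowest wild type sample, so the groups overlapped. The difference was -0.34 ± 0.14 (SE), a fold of 0.79 (95% interval of the log2 difference -0.67 to -0.02, limma adjusted p = 0.55). Mrps23, which has no bacterial counterpart, was 8.36, 8.43 and 8.32 in the knock-in samples, against 8.48, 8.69 and 8.70 in the wild type samples, without overlap. The difference was -0.25 ± 0.10 (SE), a fold of 0.84 (95% interval of the log2 difference -0.49 to -0.01, limma adjusted p = 0.55). A dimmer Mrps23 probe differed by -0.14, also without overlap.

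Mrps26, a further protein without a bacterial counterpart, was 8.41, 8.39 and 8.44 in the knock-in samples, against 8.54, 8.57 and 8.70 in the wild type samples. The knock-in samples were close together, and all lay below the wild type samples. The difference was -0.19 ± 0.09 (SE), a fold of 0.876 (95% interval of the log2 difference -0.41 to 0.03, limma adjusted p = 0.65). Its other probe differed by -0.21, also without overlap. Mrps9, Mrps23 and Mrps26 were the 3 of 72 members (4.17%) whose knock-in samples all lay below the wild type samples, where 6.47% of all genes did so, and 0 members had all knock-in samples above, where 7.23% of all genes did. With 75th percentile scaling 0 members lay below in this way and 8 above. The shares of all genes were not counted under that scaling, where 42.8% of all genes had a lower mean. These 2 counts are therefore not a result about the members.

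**Figure D3:**
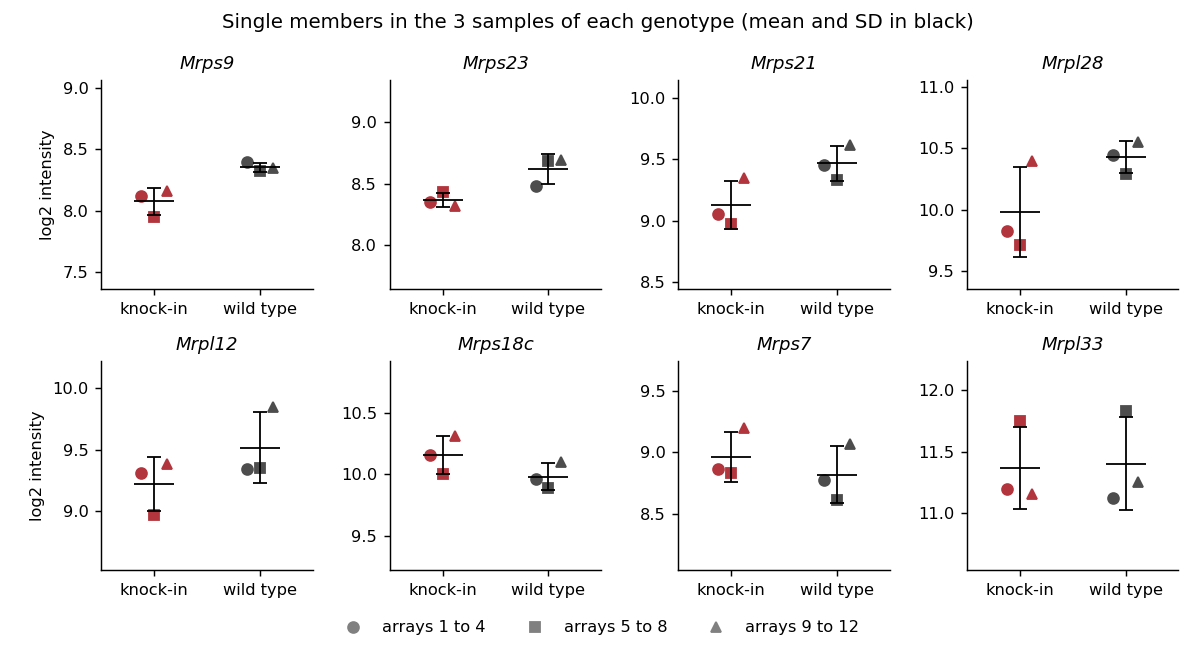
Log2 intensity (vertical axis, of equal span in each panel) of 8 members in the 3 knock-in and 3 wild type samples. Symbols give the block of 4 adjacent arrays, and the black bars the mean and SD. Mrps9 and Mrps23 do not overlap between the genotypes, while Mrpl33 is set apart by arrays 5 to 8 in both.

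Members that were higher in knock-in samples were few. Mrps18c, one of the 3 Mrps18 relatives measured, was 10.15, 10.00 and 10.31 in the knock-in samples, against 9.96, 9.89 and 10.10 in the wild type samples. The groups overlapped, but in each block of 4 arrays the knock-in sample was the higher one. The difference was 0.18 ± 0.12 (SE), a fold of 1.13 (95% interval of the log2 difference -0.11 to 0.46, limma adjusted p = 0.813). Its relatives Mrps18a and Mrps18b differed by -0.19 ± 0.17 and 0.00 ± 0.15 (SE), and dimmer Mrps18b probes by -0.14 and -0.19. Mrps12, the counterpart of a bacterial protein of the decoding centre, was 9.19, 9.14 and 9.17 in the knock-in samples, against 8.84, 8.95 and 9.19 in the wild type samples. Its wild type sample of arrays 9 and 10 reached the knock-in level and the other two lay lower. The difference was 0.17 ± 0.12 (SE), a fold of 1.13 (95% interval of the log2 difference -0.10 to 0.45, limma adjusted p = 0.806). A dimmer Mrps12 probe differed by 0.28. Mrps7, an RNA-binding protein of the head of the small subunit, was 8.86, 8.83 and 9.19 in the knock-in samples, against 8.78, 8.61 and 9.07 in the wild type samples and differed by 0.14 ± 0.16 (SE), with overlap. The differences of Mrps18c, Mrps12 and Mrps7 stayed above 0 under all settings tried, at 0.10 to 0.43, 0.10 to 0.39 and 0.03 to 0.35. Leading lower members kept their sign as well. Mrps9 stayed at -0.35 to -0.12, Mrps21 at -0.45 to -0.11, Mrps23 at -0.32 to -0.07 and Mrpl28 at -0.66 to -0.17. Other named members changed sign between settings, such as Mrpl13 (-0.25 to 0.08) and Mrpl49 (-0.15 to 0.23).

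Further small subunit proteins had limma adjusted p-values of 0.743 or more. Mrps10 differed by -0.25 ± 0.14, Mrps16 by -0.17 ± 0.14, Mrps24 by -0.15 ± 0.12 and Mrps22 by -0.12 ± 0.13 (log2, SE). Mrps25 differed by -0.06 ± 0.12, with dimmer probes at -0.16, without overlap of the genotypes, and at 0.02. Mrps34, which has no bacterial counterpart, was 9.06, 8.83 and 9.31 in the knock-in samples, against 9.08, 8.90 and 9.37 in the wild type samples. It differed by -0.05 ± 0.17 (SE), and 98.1% of its variance lay between the blocks of arrays.

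In the large subunit, the largest difference was that of Mrpl28, a counterpart of a bacterial protein. It was 9.83, 9.72 and 10.40 in the knock-in samples, against 10.45, 10.29 and 10.55 in the wild type samples. The knock-in samples of arrays 3 to 6 lay below all wild type samples, but that of arrays 11 and 12 lay between them. The difference was -0.45 ± 0.19 (SE), a fold of 0.733 (95% interval of the log2 difference -0.91 to 0.02, limma adjusted p = 0.61). Mrpl12, which forms the stalk that recruits translation factors and is also known to bind the mitochondrial RNA polymerase, was 9.31, 8.97 and 9.39 in the knock-in samples, against 9.34, 9.35 and 9.85 in the wild type samples. The knock-in sample of arrays 5 and 6 was the lowest and the wild type sample of arrays 9 and 10 the highest. The difference was -0.29 ± 0.18 (SE), a fold of 0.816 (95% interval of the log2 difference -0.73 to 0.15, limma adjusted p = 0.786).

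Mrpl37, which has no bacterial counterpart, was 9.01, 9.14 and 9.35 in the knock-in samples, against 9.25, 9.50 and 9.55 in the wild type samples. It was lower in the knock-in sample of each block, though the groups overlapped. The difference was -0.27 ± 0.13 (SE), a fold of 0.83 (95% interval of the log2 difference -0.59 to 0.05, limma adjusted p = 0.686). Its dimmer probe differed by -0.19. Mrpl3, the counterpart of a bacterial protein that reaches towards the peptidyl transferase centre, was 8.24, 8.11 and 8.39 in the knock-in samples, against 8.33, 8.40 and 8.77 in the wild type samples. The difference was -0.25 ± 0.15 (SE), a fold of 0.838 (95% interval of the log2 difference -0.61 to 0.10, limma adjusted p = 0.763). Mrpl2, Mrpl13 and Mrpl15, which are shared with bacteria, differed by -0.19 ± 0.13, -0.16 ± 0.11 and -0.18 ± 0.14 (SE). Mrpl15 had 6 probes above the limit, which ran from -0.19 to 0.06.

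Further large subunit proteins with a known special role differed by about their standard error or less. Mrpl11, at the site where translation factors hydrolyse GTP, differed by -0.13 ± 0.15 (log2, SE). Mrpl44, which is needed to assemble the subunit, differed by -0.14 ± 0.14, and Mrpl58, a peptidyl-tRNA hydrolase that rescues stalled ribosomes, by -0.10 ± 0.14. Of the members with higher means, Mrpl50 differed by 0.10 ± 0.19, Mrpl57 by 0.09 ± 0.10, Mrpl40 by 0.08 ± 0.14, Mrpl51 by 0.05 ± 0.11, Mrpl24 by 0.05 ± 0.12 and Mrpl49 by 0.02 ± 0.14. The Mrpl51 and Mrpl49 probes disagreed in sign, at -0.04 to 0.15 and -0.04 to 0.04. The dimmer Mrpl51 probe at 0.15 was higher in all knock-in than in all wild type samples. It was above the limit on 6 of 6 knock-in and 4 of 6 wild type arrays. The other 29 measured members of the large subunit ran from -0.35 to 0.00453 with a median of -0.14 after quantile normalization, 28 of them lower and 1 higher, and their lowest limma adjusted p was 0.849. The other 12 measured members of the small subunit ran from -0.26 to -0.0049 with a median of -0.12 after quantile normalization, 12 of them lower and 0 higher, and their lowest limma adjusted p was 0.91.

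More of the variance over the samples lay between blocks than between genotypes, which is partly because there are more blocks than genotypes. The blocks (arrays 1 to 4, 5 to 8 and 9 to 12) each hold 1 knock-in and 1 wild type sample and are not named in the labels. For the median member, 65.03% of the variance over the 6 samples lay between blocks and 18.3% between genotypes, against 56.2% and 13.3% for the median of all genes. The share between blocks was the larger in 61 of 72 members (84.7%, against 74.7% of all genes), 41 of 45 in the large and 20 of 27 in the small subunit. The shares were not corrected for the number of blocks and genotypes, so the block share tends to be the larger even without a block effect. Arrays 9 to 12 lay above arrays 5 to 8 by a median of 0.28, with 58 of 72 members (80.6%) higher, against -0.01 and 48.6% for all genes. That direction, too, rested on the scaling: the median was 0.40 with scaling to the median of probes above the limit, where 68 of 72 were higher, and -0.02 with 75th percentile scaling, where 34 were.

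**Figure D4:**
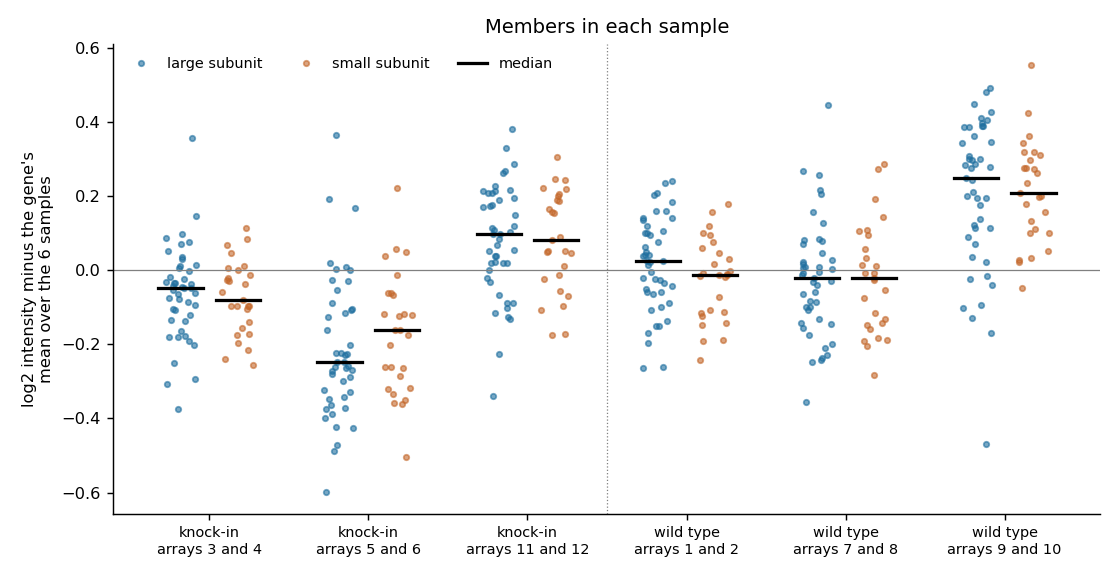
Log2 intensity of each member minus its mean over the 6 samples (vertical axis) in each knock-in sample (left of the dotted line) and wild type sample (right), with large subunit genes in blue, small subunit genes in orange and medians as bars, after quantile normalization. The members lie lowest in the knock-in sample of arrays 5 and 6 and highest in the wild type sample of arrays 9 and 10, and both subunits move together; with 75th percentile scaling the members of arrays 9 to 12 do not lie above those of arrays 5 to 8.

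Single members departed from this shared pattern, and those named here were chosen after their values were seen. Mrpl33, the counterpart of a small bacterial large subunit protein, was 11.19, 11.75 and 11.16 in the knock-in samples, against 11.12, 11.83 and 11.26 in the wild type samples. Both samples of arrays 5 to 8 were the highest, so that arrays 9 to 12 differed from arrays 5 to 8 by -0.58, while the genotypes differed by -0.04 ± 0.24 (SE). Mrpl50, Mrps6 and Mrpl55 were also lower on arrays 9 to 12 than on arrays 5 to 8, with differences of -0.45, -0.36 and -0.28 on the log2 scale. In contrast Mrpl20 and Mrpl53 were higher on arrays 9 to 12 by 0.72 each. Members thus differed unequally between the same arrays.

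Within the blocks, the knock-in sample was the lower one for 45 of 72 members on arrays 1 to 4, for 57 on arrays 5 to 8 and for 59 on arrays 9 to 12. The median differences were -0.06, -0.18 and -0.14, against -0.02, -0.02 and -0.03 for all genes. For the large subunit they were -0.04, -0.20 and -0.14, and for the small subunit -0.09, -0.16 and -0.15. In all 3 blocks 30 members were lower (41.7%, where 23.5% of all genes were). With 75th percentile scaling 6 were, and the share of all genes was not counted there. Mrps18c and Mrps7 were the 2 members higher in all 3 blocks, where 16.3% of all genes were.

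**Figure D5:**
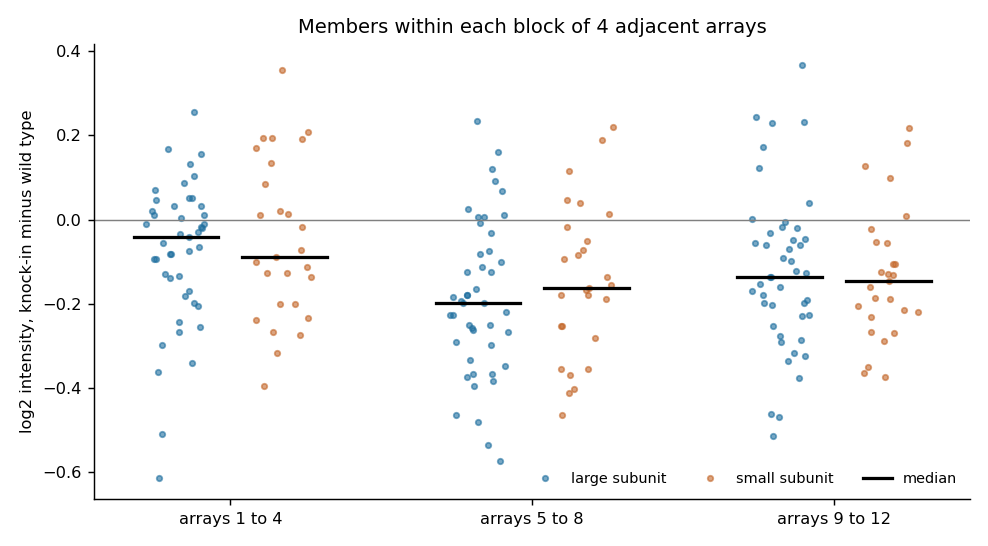
Log2 difference, knock-in minus wild type (vertical axis), of each large (blue) and small (orange) subunit gene within each block of 4 adjacent arrays, with medians as bars, after quantile normalization. The medians lie between -0.04 and -0.09 on arrays 1 to 4 and between -0.14 and -0.20 in the other blocks. With 75th percentile scaling the median difference of the members over all samples was 0.03, and medians within blocks were not computed.

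Other genes of mitochondrial translation gave no call either, and their medians also moved with the scaling. Of 4 measured subunits of the mitochondrial ribosome with other names, 0 passed, 2 were lower and 2 higher, with a median of -0.03 (0.10 with 75th percentile scaling). Dap3 and Chchd1, of the small subunit, differed by -0.10 ± 0.12 and -0.15 ± 0.10, and Ptcd3, also of the small subunit, by 0.08 ± 0.12 (SE). Of 11 translation factors 0 passed and 6 were lower (54.5%, where 58.4% of all genes were), with a median of -0.07 (-0.05 with that scaling). Mtrf1l, a release factor, differed by 0.55 ± 0.16 without overlap of the genotypes (limma adjusted p = 0.336), and Tufm, which brings aminoacyl-tRNA to the ribosome, by -0.31 ± 0.17 (limma adjusted p = 0.741).

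Of 16 genes that charge mitochondrial tRNAs 0 passed and 14 were lower (87.5%, where 58.4% of all genes were). Their median was -0.11 (-0.05 with 75th percentile scaling). They were 13 aminoacyl-tRNA synthetases, 11 of them lower, and 3 subunits of the glutamyl-tRNA amidotransferase (Gatb, Gatc and Qrsl1), all 3 lower. The synthetases for valine and threonine, Vars2 and Tars2, differed by -0.31 ± 0.11 and -0.25 ± 0.10 without overlap (limma adjusted p = 0.489 and 0.54). Of 19 assembly factors 0 passed and 16 were lower (84.2%), with a median of -0.12 (-0.01 with that scaling). Dhx30, an RNA helicase, differed by -0.22 ± 0.09 without overlap (limma adjusted p = 0.548). Of 17 genes of mitochondrial transcription, RNA processing and DNA replication 0 passed and 14 were lower (82.4%). Their median was -0.08 (0.01 with that scaling). The replication genes were Polg, Polg2, Ssbp1 and Twnk, 3 of these 4 lower, and of the other 13 genes 11 were lower. Polrmt, the RNA polymerase to which Mrpl12 binds, differed by -0.22 ± 0.12 (limma adjusted p = 0.715), and Polg2, an accessory subunit of the DNA polymerase, by 0.34 ± 0.13 without overlap (limma adjusted p = 0.538). Over the 67 genes of these lists, limma gave an unadjusted p under 0.05 to 3 that were lower (4.48%, where 3.09% of all genes were) and to 2 that were higher (2.99%, where 5.56% of all genes were). Lower without overlap were 4 of the 16 genes that charge tRNAs (25%) and 2 of the 19 assembly factors (10.5%), where 6.47% of all genes were. Higher without overlap were 1 of the 11 translation factors and 1 of the 17 genes of the last list, where 7.23% of all genes were. Mtrf1l, Vars2, Tars2, Dhx30, Tufm, Polrmt and Polg2 were chosen after their values were seen.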

How the data were processed

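The assay was direct hybridization of biotin-labelled cRNA, per the labels' protocols. The submitters' processing notes name GenomeStudio. The intensity values deposited by the authors had no normalization between arrays and cover 45281 probes on 12 arrays. On each array 33.1% to 37.0% of its values are negative, which shows that background was removed upstream. A further deposited table of processed intensity values shares 1 distribution over all arrays and served as an alternative.

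Intensities were corrected with limma's normexp (offset 50), quantile-normalized and taken to log2, which understates folds of dim genes. The background limit of an array was the 90th percentile of its mirrored negative values. Adjacent arrays were averaged. The SD of log2 differences was 0.0948 to 0.143 within such pairs, and 0.287 to 0.458 between arrays of a genotype from different pairs. A gene was represented by its brightest probe, named through the platform annotation, and other probes were kept apart.

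The test was that of limma 3.58.1 (R 4.3.3, lmFit and eBayes, two-sided) with Benjamini-Hochberg adjustment over 9388 genes and a threshold of 0.05. The procedure was tested on simulated data with differences larger than that of any member and without blocks of arrays. That does not test its power for differences as small as those of the members. The lists got no test of their own. Members and lists were chosen with earlier results of these data known. Named in each subunit were the 6 members with the smallest p in each direction, measured members of a list of known roles, and members whose probes disagreed in sign; exceptions are marked. Alternatives changed the background correction, normalization, table, filter, choice of probe, variance model and unit of replication, or left out samples or arrays. Promoters came from RefSeq on GRCm38.p6, the array's own build was not needed, and figures were drawn with matplotlib 3.10.9.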

Additional observations from a re-analysis of the deposited data

How the results depend on the processing

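No member was called higher under any of the 15 settings on all samples, and 3 of 72 were called lower under 1 of them, with the 12 arrays taken as 12 samples, which counts duplicates as replicates: Mrps9, Mrps21 and Mrps23 (limma adjusted p = 0.0183, 0.0366 and 0.0389). Under that same setting 324 of all 9388 genes were called lower and 536 higher. With 75th percentile scaling 29 of 72 members were lower, the medians were 0.0308 for all members, 0.0416 for the large and 0.00809 for the small subunit, and the large minus small median was 0.0335; the cause was not tested. With every probe by itself 93 of 111 member probes were lower. Leaving out a sample, between 49 and 63 of 72 members were lower, the median ran from -0.21 to -0.06, and the large minus small median from -0.0628 (without knock-in arrays 3 and 4) to 0.00879. Leaving out an array it ran from -0.033 to 0.007. Members whose genotypes did not overlap, lower in knock-in samples, numbered 4 to 17 with a sample left out, which leaves fewer samples to overlap. The share of all genes was not counted in these runs, so the numbers are not a result about the members. All genes called higher numbered 4 to 536 and lower 0 to 324 under the settings on all samples. Of 1023 values of 31 named members under all settings, 33 had the other sign, 18 moved by more than the SD of replicates, and 3 were called. Values near the limit, as for Mrpl35, Mrpl39 and Mrps27, had small standard errors (0.09, 0.09 and 0.10, against a median of 0.15 for the members). The offset understates the folds of such dim genes. The genotypes share no replicate number in the labels. Pairing the samples by block of 4 adjacent arrays, which the labels do not name, called 0 members, and 63 of all genes higher and 25 lower.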
